A study of Mus musculus with 16 samples.

Results

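The serpins (serine protease inhibitors) were examined in the RNA of p53-/-; Myc hepatoblasts, a mouse cell line used as a model of hepatocellular carcinoma (HCC). Every row of the count table named Serpin, followed by a clade letter from a to i and a number, was taken, pseudogene names were left out, and a row was kept when it held at least 10 counts in total over the 16 libraries. This gave 28 serpin genes out of 64 serpin names, among 20444 genes tested and 40840 genes in the table. Cells were exposed to sorafenib, a multikinase inhibitor given in advanced HCC, or to its vehicle dimethyl sulfoxide (DMSO), for 48 hours or for 7 days, with 4 libraries in each of the 4 groups. All groups shared the loss of p53 and the overexpression of Myc and came from 1 immortal, tumorigenic line. The effect of the drug was therefore measured in that background only, and nothing here extends it to another. The labels number the replicates but do not say whether these were separate cultures, so the tests measure the spread between these libraries. The comparisons ask what a short and a long exposure did to the serpin transcripts, and whether the response differed between the times.

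A serpin inhibits a protease by offering it an exposed loop as bait. When the protease cuts the loop, the serpin changes shape and drags the enzyme into an inactive covalent complex, so each inhibitor molecule works a single time. Clade A, C, D, E, F, G and I members are mostly secreted, and in the liver they are best known as plasma inhibitors of clotting, fibrinolysis and complement. Clade B members lack a classical signal peptide and act mainly inside cells, where they guard against proteases that leak from granules and lysosomes. A few serpins have lost the inhibitory role, among them Serpinh1, a chaperone for collagen in the endoplasmic reticulum, and Serpinf1, a secreted factor that restrains vessel growth.

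Library totals lay between 16586254 and 30828427 counts (median 26360677), and levels are given as normalized counts, that is, counts scaled to the same effective library size by the trimmed mean of M values (TMM). A gene was called when the Benjamini-Hochberg adjusted p of edgeR's quasi-likelihood test over all tested genes (FDR) was under 0.05. Sorafenib 48-hour replicate 2 stood apart: its genes on chromosomes 15 to 19 and X lay 0.73 log2 units below those on chromosomes 1 to 13, against at most 0.07 in any other library. Serpind1, on chromosome 16, was the only serpin gene there, and the counts of called serpin genes were 10 higher and 4 lower at 48 hours, and 14 and 4 at 7 days, with and without that library. Genes on chromosomes 1 to 13 lay 0.09 log2 units higher in that library than in the rest of its group. With any 1 library left out, the log2 fold change of Serpinh1 at 48 hours ran from 0.64 to 0.69. The labelled cell type was checked on marker lists. Of 9 hepatoblast and hepatocyte markers, 7 passed the count minimum, while Alb had 3 counts in all libraries together and Hnf4a none. Their summed level ran from 31852 to 33375 normalized counts with DMSO and from 10024 to 11772 with sorafenib at 48 hours, and from 16487 to 18383 and from 4179 to 4343 at 7 days. Dlk1, a hepatoblast marker, carried nearly all of it, with 32234 ± 841 (SD, n = 4, as throughout) and 10444 ± 847 at 48 hours, and 16766 ± 807 and 4020 ± 84.9 at 7 days. All 6 biliary markers were measured, and their summed level ran from 8401 to 8858 and from 5250 to 5448 at 48 hours, and from 7871 to 8169 and from 4273 to 4489 at 7 days, in DMSO and sorafenib. The 6 fibroblast markers, all measured, summed to between 115817 and 117622 with DMSO and between 125621 and 138977 with sorafenib at 48 hours, and to between 89678 and 94296 and between 63438 and 64947 at 7 days. That sum is carried by Col1a1 and Col3a1, and by gene 2 of the 6 were higher and 3 lower at 48 hours (median log2 fold change -0.45), and 1 higher and 5 lower at 7 days (-1.63). Over all tested genes, 26.9% were called higher and 27.7% lower at 48 hours, and 28.9% and 27.9% at 7 days. Only 3 of 6 leukocyte markers passed the count minimum, with sums of 85.0 to 92.9 and 64.7 to 92.6 at 48 hours and 130 to 155 and 80.5 to 90.1 at 7 days in DMSO and sorafenib, and Adgre1 and Cd3e had no counts. Among 5 endothelial markers 4 passed it, with sums of 58.6 to 100.1 and 124 to 160 at 48 hours, and 42.2 to 70.8 and 205 to 236 at 7 days, and Cdh5 had 3 counts in all. The part of these shifts in the serpin values was not tested, and in bulk RNA fewer cells of a type and less RNA per cell cannot be told apart.

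Stretches just upstream of the canonical start are shown for 3 serpin genes. They belong to the steepest riser (Serpinb9b), another riser of its cluster (Serpinb6b) and the gene that fell most (Serping1). Each holds the 120 bases before the start, 5′ to 3′ on the gene's strand in GRCm39, at chr13:33211279-33211398 (plus strand), chr13:33149064-33149183 (plus) and chr2:84605789-84605908 (minus). No capitals appear in them because none of the motifs searched below lies in these windows. The windows of Serpinb6b and Serping1 lie inside the annotated spans of these genes (chr13:33073279-33163050 and chr2:84595705-84620873). Other annotated starts of both therefore lie farther upstream, and which start these cells used was not tested.
Serpinb9b: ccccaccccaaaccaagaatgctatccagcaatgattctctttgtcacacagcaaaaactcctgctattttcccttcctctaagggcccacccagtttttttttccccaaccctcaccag
Serpinb6b: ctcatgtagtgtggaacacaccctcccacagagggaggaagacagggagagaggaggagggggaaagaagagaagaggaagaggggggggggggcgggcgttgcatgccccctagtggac
Serping1: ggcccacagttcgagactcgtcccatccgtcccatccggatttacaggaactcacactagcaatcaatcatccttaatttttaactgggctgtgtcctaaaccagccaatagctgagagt

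Motifs were searched on both strands in the 250 bases before to the 50 bases after the start of every protein-coding gene (21729 promoters). TATAAA, the letters of a TATA box, added to the search after the data were seen, was found in 13.2% of all promoters and in 6 of the 28 serpin promoters. The AP-1 letters TGANTCA, which include the stricter TGACTCA, occurred in 7.14% of all promoters and in 5 of the 28 serpin promoters, and these 5 were all among the 6 clade B genes of chromosome 1 (Serpinb5, Serpinb7, Serpinb2, Serpinb10 and Serpinb8). They are shown with 10 bases on either side and the match in capitals, each on the plus strand, at chr1:106788755-106788781, chr1:107350364-107350390, chr1:107439049-107439075, chr1:107456669-107456695 and chr1:107517703-107517729.
Serpinb5: aagttgggccTGAATCAtgtcttccaa
Serpinb7: agggagtgtcTGAGTCAgaggctttat
Serpinb2: agtaaaatgtTGAATCAtacaaagaat
Serpinb10: cttgtgaaagTGAATCAagggtggggc
Serpinb8: gtgggaagtgTGAGTCAcagagtgttc

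TGACTCA itself, read on either strand, was in 4.70% of all promoters and in those of Serpinb7 and Serpinb8. The antioxidant-element letters TGACNNNGC were in 12.4% of promoters and in those of Serpinh1, Serpinb6a and Serpind1. TGATGCAA, the letters of a C/EBP-ATF composite site, were in 0.989% and in Serpinb6c only. GTCTAGAC, a SMAD palindrome, was in 0.267% and in no serpin promoter. These matches describe the letters in the window and nothing about a factor. In their responses the 5 genes with TGANTCA differed: Serpinb8 rose at both times, Serpinb2 rose at 7 days, and Serpinb5, Serpinb7 and Serpinb10 were not called with sorafenib at either time.

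After 48 hours of sorafenib, 10 of the 28 serpin genes were higher and 4 lower, where 26.9% of all tested genes were higher and 27.7% lower. After 7 days, 14 were higher and 4 lower, against 28.9% and 27.9% of all tested genes. The median log2 fold change over the serpin genes was 0.29 at 48 hours and 0.79 at 7 days, and over all tested genes it was -0.05 and 0.02. The same 10 genes that were higher at 48 hours were higher at 7 days. Serping1, Serpina9 and Serpina11 were lower at both times, Serpinb1a was lower at 48 hours only, and Serpini1, Serpinb2, Serpinb1b and Serpinb6c (higher) and Serpind1 (lower) were called at 7 days only. The other 9 were called at neither time. Of the 14 serpin genes that averaged at least 10 normalized counts, 9 were higher and 4 lower at 48 hours, where 36.4% and 34.8% of all genes at that level were called, and 10 were higher and 3 lower at 7 days, against 35.5% and 36.5%. In the other 14 serpin genes, which averaged fewer than 10, calls were 1 higher at 48 hours and 4 higher and 1 lower at 7 days. Calls were rarer at that level, so the shares above are no measure for these genes. Of 5505 genes higher and 5653 lower at 48 hours over all tested genes, 5098 and 4868 averaged at least 10. At 7 days these were 5917 and 5696, of which 4971 and 5107 averaged at least 10.

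**Figure D1:**
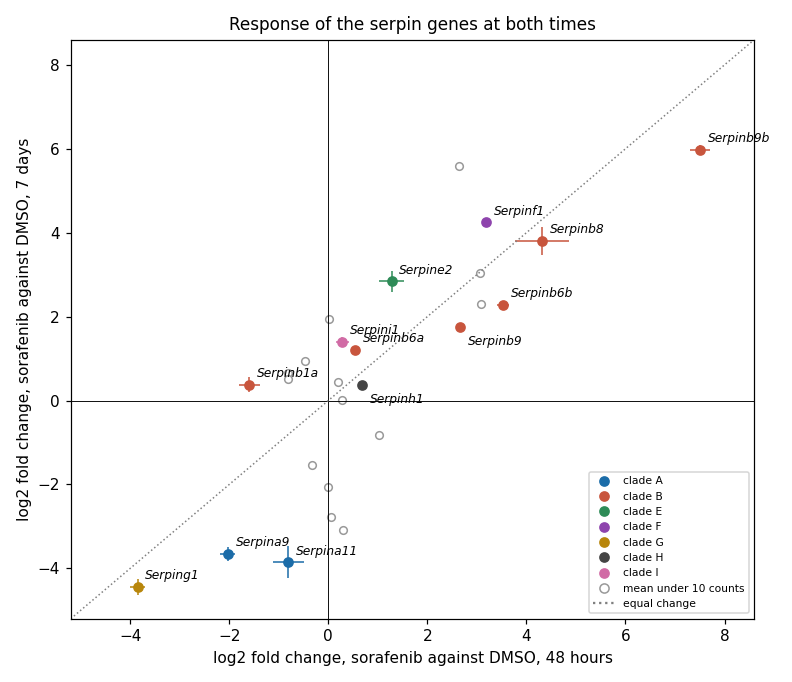
Log2 fold change of each of 27 serpin genes with sorafenib against DMSO at 48 hours (x axis) and at 7 days (y axis), with standard errors as bars for the 13 genes that averaged at least 10 normalized counts, coloured by clade, and open circles for the other 14. Serpinb9b lies far to the upper right, Serping1 and Serpina9 to the lower left, and Serpinb1a on opposite sides of 0 at the 2 times.

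Among 14 clade B genes, 6 were higher and 1 lower at 48 hours, and 9 higher and none lower at 7 days, with median log2 fold changes of 1.59 and 1.84, beside 26.9% higher and 27.7% lower at 48 hours and 28.9% and 27.9% at 7 days over all tested genes. Serpinb1c, Serpinb6c and Serpinb11, with 1 count each over the DMSO libraries of both times, passed the count minimum through their sorafenib libraries, so the counts and medians that include them are a description only. All 4 clade A genes were either lower or not called: 2 were lower at both times, and none was higher. Clade F had 1 of 2 genes higher at both times. Clades C, D, G, H and I had 1 gene each. Within clade B the 8 genes on chromosome 13 accounted for most calls, with 5 higher and 1 lower at 48 hours and 7 higher at 7 days, while of the 6 on chromosome 1, 1 was higher at 48 hours and 2 at 7 days.

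Serpinb9b, a rodent paralog of the granzyme B inhibitor Serpinb9, had the largest increase. It lies on the plus strand at chr13:33211399-33225867 in GRCm39, the build of all positions given here. With DMSO at 48 hours its 4 libraries held 0, 2, 2 and 5 counts, or 0, 1.74, 2.04 and 4.32 normalized counts. With sorafenib at 48 hours they held 397, 425, 426 and 355 normalized counts. A gene that was barely present in vehicle cells was therefore read in every treated library, with a wide gap between the groups. The summed counts were 9 and 1325, a rate ratio of 192 (95% exact interval for counting error only, 101 to 421), and the fitted log2 fold change was 7.50 ± 0.20 (SE, FDR 4.91e-17). It was 8.14 without DMSO replicate 4 of that time, which held 5 of the 9 vehicle counts, and ran from 7.10 to 8.14 with any 1 library left out. At 7 days the DMSO libraries held 23.8, 19.7, 20.7 and 15.8 normalized counts, and the sorafenib libraries 1396, 1274, 1182 and 1197. The fitted log2 fold change was 5.98 ± 0.12 (FDR 4.38e-19) and the rate ratio 63.3 (51.1 to 79.2). Serpinb9b was also higher at 7 days than at 48 hours within each treatment, by 3.18 ± 0.39 log2 units with DMSO (FDR 1.08e-06) and by 1.65 ± 0.08 with sorafenib (FDR 1.58e-12). The response at 7 days was smaller than that at 48 hours by 1.52 ± 0.44 log2 units (FDR 0.0101; the difference was -2.16 without that vehicle library), with the level in treated cells at its highest and that in vehicle cells no longer near 0.

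Serpinb9, which blocks granzyme B inside cytotoxic lymphocytes and other cells, lies next to Serpinb9b at chr13:33187233-33201940. Its normalized counts at 48 hours were 118, 158, 137 and 142 with DMSO and 867, 886, 854 and 913 with sorafenib. The groups were far apart, and the log2 fold change was 2.66 ± 0.07 (FDR 2.88e-17). At 7 days they were 291, 327, 284 and 326 with DMSO and 1065, 991, 1053 and 1039 with sorafenib, a log2 fold change of 1.75 ± 0.06 (FDR 2.22e-15). The response was smaller at 7 days by 0.91 ± 0.09 log2 units (FDR 1.93e-07). The vehicle level had risen more between the times, by 1.14 ± 0.07 log2 units, than the treated level, by 0.24 ± 0.06.

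The transcripts of Serpinb9 and Serpinb9b were 85.1% identical over 1833 aligned bases, but shared no stretch of 75 bases with each other or with another gene's transcripts. The same held for Serpinb6a and Serpinb6b, at 87.3% over 1145 bases. The 250 bases before the start of Serpinb9 and Serpinb9b shared 160 identical positions (64.0%). Gm36099, a noncoding gene on the opposite strand, covers 10.5% of the exon bases of Serpinb9b and had 29 counts in all, against 6799 for Serpinb9b. Whether the counting used strand is not given in the sources used here, and where it did not, reads in such overlaps could not be told apart.

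Serpinb6b and Serpinb6a are mouse paralogs of an intracellular inhibitor of cathepsin G and related proteases, at chr13:33073279-33163050 and chr13:34100229-34186812. Serpinb6b held 86.0, 68.5, 60.2 and 54.4 normalized counts with DMSO at 48 hours, and 828, 788, 753 and 750 with sorafenib. After 7 days these were 95.1, 150, 136 and 171 with DMSO and 684, 683, 681 and 648 with sorafenib. Treated libraries lay above vehicle libraries at both times without overlap. The log2 fold changes were 3.53 ± 0.12 (FDR 2.09e-15) and 2.28 ± 0.11 (FDR 3.09e-13), the second smaller by 1.26 ± 0.17 (FDR 7.15e-06). Between the times, the vehicle level rose by 1.05 ± 0.15 log2 units, while the difference in treated cells, -0.21 ± 0.09, was not called (FDR 0.0803).

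Serpinb6a had the highest level per length of the clade B genes in both vehicle groups, and its response was larger at the later time. It held 1201, 1191, 1288 and 1165 normalized counts with DMSO and 1667, 1911, 1758 and 1735 with sorafenib at 48 hours. The 7-day values were 1090, 1141, 1121 and 1101 with DMSO and 2503, 2600, 2540 and 2621 with sorafenib. The groups did not overlap. The log2 fold change was 0.55 ± 0.04 at 48 hours (FDR 8.66e-10) and 1.20 ± 0.04 at 7 days (FDR 2.34e-15), a gain of 0.66 ± 0.06 (FDR 2.79e-08). Opposite-strand exons of Nqo2, the noncoding gene 1110046J04Rik and Ripk1 cover 10.02%, 8.26% and 3.17% of its exon bases.

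**Figure D2:**
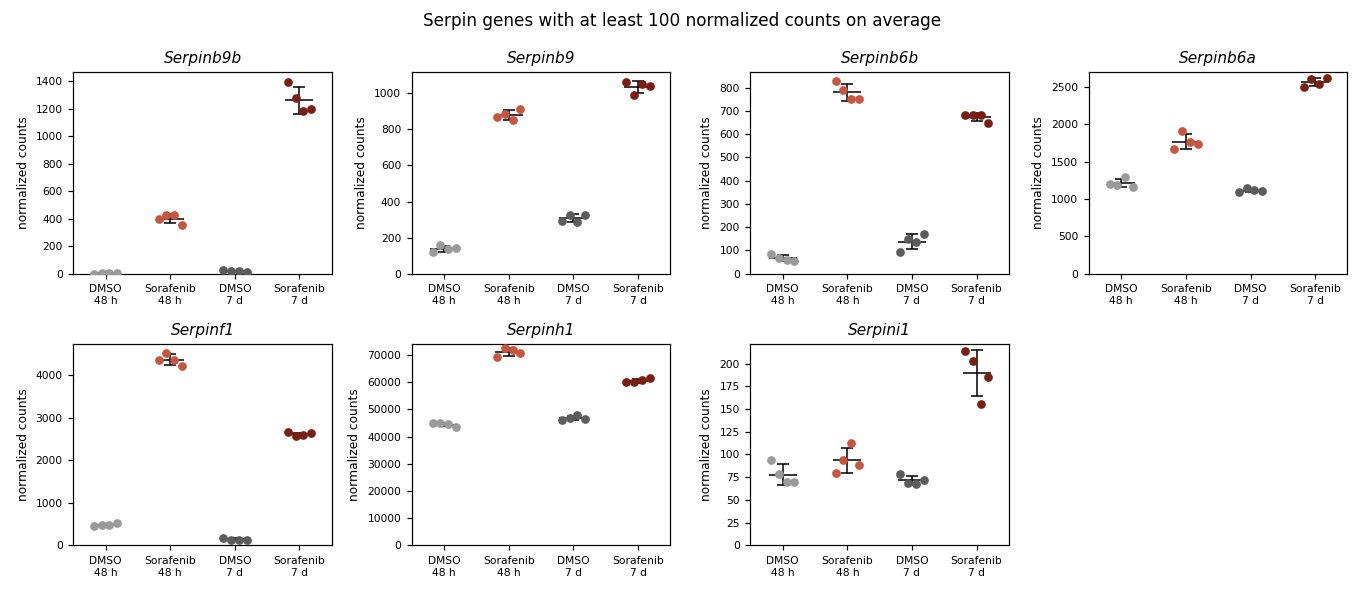
Normalized counts of 7 serpin genes that averaged at least 100 and were called with sorafenib, in each library (points), with the mean and SD of 4 libraries as bars, for DMSO and sorafenib at 48 hours and 7 days, each panel on its own axis from 0. Only Serpini1 at 48 hours has overlapping treated and vehicle points, and Serpinb9b is near 0 in DMSO at 48 hours.

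Serpine2 (protease nexin 1), an inhibitor of thrombin and urokinase, was present at a low level, with 14.4 ± 2.8 and 35.0 ± 13.8 normalized counts at 48 hours and 7.58 ± 1.03 and 55.2 ± 5.1 at 7 days in DMSO and sorafenib. It rose 2.43-fold (log2 1.28 ± 0.26, FDR 0.000244) and 7.16-fold (log2 2.84 ± 0.26, FDR 8.19e-09), and the response was larger at 7 days by 1.56 ± 0.39 (FDR 0.00319).

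Serpinf1 encodes pigment epithelium-derived factor (PEDF), which inhibits no protease, limits vessel growth and binds the lipase Pnpla2. Its gene is at chr11:75299998-75322362. It held 452, 466, 473 and 518 normalized counts with DMSO and 4360, 4526, 4366 and 4210 with sorafenib at 48 hours. After 7 days these were 174, 126, 122 and 134 with DMSO and 2660, 2577, 2597 and 2631 with sorafenib. Serpinf1 was thus lower at 7 days than at 48 hours in both treatments, and rose with the drug at each time. It rose 9.14-fold (log2 3.19 ± 0.06, FDR 3.18e-19) and 19.01-fold (log2 4.25 ± 0.07, FDR 3.29e-20), the second larger by 1.06 ± 0.09 log2 units (FDR 2.23e-08). In time the vehicle level fell by 1.79 ± 0.08 log2 units and the treated level fell by 0.74 ± 0.05.

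Serpinh1 (Hsp47), the collagen chaperone, had by far the highest level of any serpin. Its gene is at chr7:98994220-99005076. It held 44885, 44874, 44477 and 43524 normalized counts with DMSO and 69520, 72787, 71845 and 70731 with sorafenib at 48 hours. The later values were 46224, 46766, 48073 and 46676 with DMSO and 60172, 60024, 60771 and 61640 with sorafenib. Its folds were small but its groups were tight and did not overlap: 1.60-fold (log2 0.68 ± 0.02, FDR 1.88e-15) and 1.29-fold (log2 0.37 ± 0.02, FDR 2.76e-11). The response was smaller at 7 days by 0.31 ± 0.03 log2 units (FDR 2.44e-07).

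Serpini1 (neuroserpin), an inhibitor of tissue-type plasminogen activator best known from neurons, is encoded at chr3:75464800-75550802 and rose at 7 days only. It held 93.8, 78.1, 69.4 and 70.0 normalized counts with DMSO and 80.0, 93.7, 112 and 88.6 with sorafenib at 48 hours, where the groups overlapped and the log2 fold change of 0.29 ± 0.14 was not called (FDR 0.0879). At 7 days it held 78.9, 68.5, 67.3 and 71.4 with DMSO and 214, 203, 156 and 185 with sorafenib, with no overlap. The log2 fold change was 1.40 ± 0.12 (FDR 3.78e-09), larger than that at 48 hours by 1.12 ± 0.18 (FDR 5.95e-05). The call at 48 hours turned on 1 library: without DMSO 48-hour replicate 1 the log2 fold change was 0.35 (FDR 0.0390).

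Among the serpin genes averaging at least 10 normalized counts, the secreted inhibitors that fell were Serping1, Serpina9 and Serpina11. Serping1, the C1 inhibitor, controls the first complement proteases and plasma kallikrein, and is encoded at chr2:84595705-84620873. Its mean fell from 159 ± 10.3 normalized counts with DMSO to 10.98 ± 1.53 with sorafenib at 48 hours, and from 88.6 ± 5.8 to 3.87 ± 2.00 at 7 days. These were 14.4-fold (log2 -3.85 ± 0.15, FDR 2.23e-14) and 21.7-fold decreases (log2 -4.44 ± 0.19, FDR 8.37e-14), and their difference, -0.59 ± 0.33, was not called (FDR 0.273). Its targets C1s1 and C1ra, chosen here after their values were seen, were higher at 48 hours and lower at 7 days, with log2 fold changes of 2.09 and 1.26 and then of -0.80 and -0.96. All 4 of these changes were called (FDR between 1.46e-15 and 1.45e-07). Masp1 and Masp2, proteases of the lectin pathway that it also blocks, were called higher at both times, with log2 fold changes of 0.77 and 1.07 for Masp1 and 0.73 and 0.71 for Masp2, so its targets did not share 1 pattern.

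Serpina9 (centerin), known from germinal-centre B cells and encoded at chr12:103961002-103980062, fell from 141 ± 24.4 to 35.1 ± 8.9 normalized counts at 48 hours (log2 -2.03 ± 0.15, FDR 5.40e-10) and from 178 ± 9.2 to 14.2 ± 1.3 at 7 days (log2 -3.65 ± 0.17, FDR 1.76e-13). The loss was deeper at 7 days by 1.62 ± 0.26 log2 units (FDR 4.43e-05). Serpina11, its neighbour on chromosome 12, had 23.5 ± 6.5 and 13.5 ± 4.5 normalized counts at 48 hours and 35.5 ± 4.3 and 2.36 ± 1.72 at 7 days. At 7 days it fell by 3.86 ± 0.38 log2 units (FDR 3.02e-08). At 48 hours its groups overlapped, and the call (log2 -0.81 ± 0.31, FDR 0.0322) was lost without DMSO replicate 3 (FDR 0.0662) or 4 (FDR 0.0942) or sorafenib replicate 1 (FDR 0.0697) or 3 (FDR 0.104) of that time. Of the 75-base stretches of Serpina11, 24.3% also occur in the overlapping gene Gm28577, so its counts are uncertain to that extent.

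Serpinb1a and Serpinb8 completed the genes at moderate level. Serpinb1a, an inhibitor of neutrophil serine proteases, had 47.7 ± 8.6 normalized counts with DMSO and 16.2 ± 4.7 with sorafenib at 48 hours, where it fell by 1.59 ± 0.21 log2 units (FDR 1.36e-06). At 7 days it had 24.7 ± 3.4 and 31.8 ± 2.4, a difference of 0.38 ± 0.19 that was not called (FDR 0.0960). The responses at the 2 times differed by 1.97 ± 0.28 log2 units (FDR 1.21e-05). Serpinb8, which can inhibit furin, had 2, 0, 3 and 0 counts with DMSO at 48 hours against 21, 16, 30 and 17 with sorafenib, a rate ratio of 21.9 (95% exact interval, 9.03 to 69.3) and a fitted log2 fold change of 4.31 ± 0.55 (FDR 1.20e-06), which was 5.11 without DMSO replicate 3. At 7 days it had 4.90 ± 3.16 and 69.6 ± 17.5 normalized counts (log2 3.81 ± 0.33, FDR 4.74e-09), and the difference between the responses, -0.51 ± 0.76, was not called (FDR 0.658) and was -1.31 without that library.

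**Figure D3:**
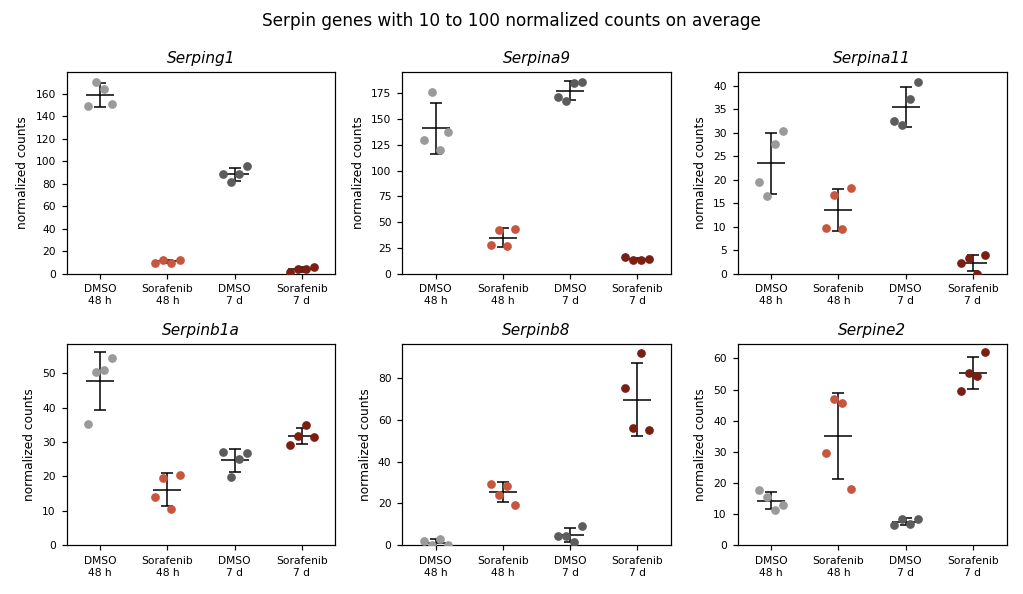
Normalized counts of the 6 serpin genes that averaged 10 to 100 and were called with sorafenib, in each library (points), with the mean and SD of 4 libraries as bars, each panel on its own axis from 0. Serping1 and Serpina9 fall at both times, Serpinb8 and Serpine2 rise, and Serpinb1a is lower with sorafenib at 48 hours only.

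The remaining 14 serpin genes averaged fewer than 10 normalized counts, and counting error dominates their values. Serpinb2 (plasminogen activator inhibitor type 2) is induced by inflammatory stimuli in macrophages. It had 2 counts with DMSO and 1 with sorafenib at 48 hours over 4 libraries each, and 43 and 81 at 7 days. At 7 days it was higher with sorafenib than with DMSO (log2 0.94 ± 0.34, FDR 0.0261), a call lost without DMSO replicate 1 or 4 or sorafenib replicate 1 or 3 of that time. The ratio of 7 days to 48 hours in DMSO was 21.4 (5.58 to 183). Serpinb1c had 0 counts with DMSO and 6, 9, 5 and 5 with sorafenib at 7 days, at least 8.43-fold higher against a floor of 3 counts over the group, with an exact 95% lower limit of the ratio of 6.36. At 48 hours it had 1 count against 7, a ratio of 9.13 (1.17 to 412), and that call was lost without any 1 of DMSO replicates 2, 3 and 4 and sorafenib replicates 3 and 4 of that time. Serpinb1b had 11 and 43 counts at 7 days (log2 1.93 ± 0.49, FDR 0.00205), and Serpinb6c had 1 and 12 (FDR 0.0201), where the call was lost without DMSO replicate 2 or 4 or sorafenib replicate 2. Serpind1 (heparin cofactor II) was the low-level gene that fell, with 30 counts with DMSO and 4 with sorafenib at 7 days, a ratio of 0.135 (0.0345 to 0.383). The other 9 (Serpinb5, Serpinb7, Serpinb10, Serpinb11, Serpinc1, Serpinf2, Serpina12, Serpina3g and Serpine3) were not called with sorafenib, including the antithrombin and antiplasmin genes Serpinc1 and Serpinf2, which held at most 5 and 7 counts in any library.

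Of the 64 serpin names, 36 stayed below 10 counts. They included plasma serpins that the adult liver secretes: Serpina1e, an alpha-1-antitrypsin gene, had 8 counts in all 16 libraries, its paralogs Serpina1a to Serpina1d had none, and Serpina3k, Serpina6 and Serpina7 also had none. Between 22.6% and 66.9% of the 75-base stretches of Serpina1a to Serpina1e occur in another gene, and how reads matching several copies were counted is not given in the sources used here. In the Serpinb9 family, Serpinb9c to Serpinb9h had at most 4 counts each, next to 9265 for Serpinb9 and 6799 for Serpinb9b. Between 16.8% and 73.1% of the 75-base stretches of Serpinb9c to Serpinb9h occur in another gene, and none of those of Serpinb9 and Serpinb9b. The same limit therefore holds for the low counts of Serpinb9c to Serpinb9h.

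Per kilobase of exon, the serpin genes of at least 10 normalized counts covered a wide range within each group. Serpinh1 led in all 4 groups, with 6335 and 10153 normalized counts per kb at 48 hours and 6691 and 8646 at 7 days in DMSO and sorafenib. In DMSO at 48 hours Serpinb6a had 159 ± 7 and Serpinf1 131.5 ± 7.9, farther apart than 2 SD of either, and Serpinb9b was near the bottom with 0.604 ± 0.530. In sorafenib at 7 days the order among the genes given here was Serpinh1, Serpinf1 (721.5 ± 10.2 per kb), Serpinb9b (377 ± 29), Serpinb6a (337.5 ± 7.1), Serpinb9 (214 ± 7) and Serpinb6b (205 ± 5). Serpinb9 and Serpinb6b lay within 2 SD of each other there, by the SD of either. Serpinb9b and Serpinb6a did so only by the larger SD of Serpinb9b. Exon length is that of all annotated exons, so a gene that uses few of them is understated on this scale.

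**Figure D4:**
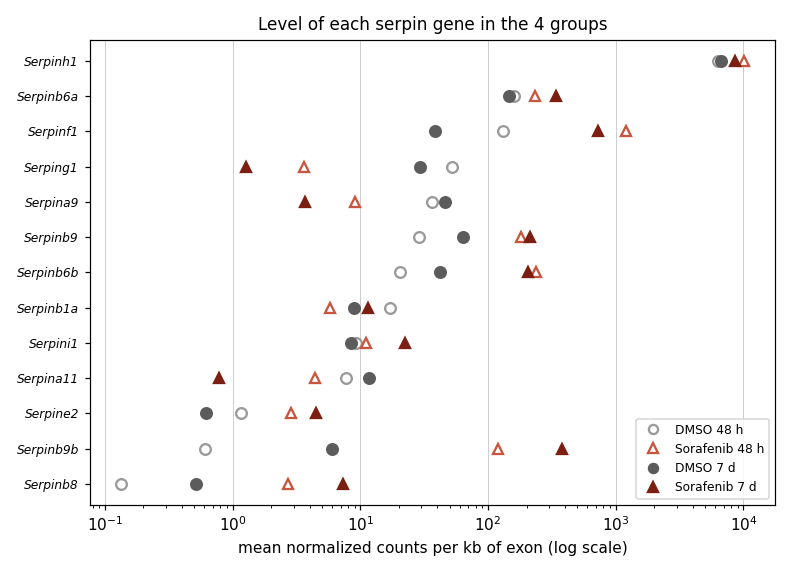
Mean normalized counts per kilobase of exon (log axis) of 13 serpin genes that averaged at least 10 normalized counts, 1 row per gene, in DMSO (circles) and sorafenib (triangles) at 48 hours (open) and 7 days (filled). Serpinh1 is highest throughout, Serpinb9b moves from the lower end of the range to the upper part, and Serping1 and Serpina9 move down.

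The chromosome 13 clade B genes lie together between 33026042 and 34186812, where the table holds 16 serpin rows, 8 of them tested. Of 5 other tested genes inside this stretch, 3 were higher and 1 lower at 48 hours, and 4 higher and 1 lower at 7 days. The 4 higher at 7 days were Gm36181, Gm36099, 1110046J04Rik and Nqo2. Each shares exon bases on the opposite strand with Serpinb9 (Gm36181), Serpinb9b (Gm36099) or Serpinb6a (1110046J04Rik and Nqo2). Where the counting ignored strand, their reads could not be told apart from serpin reads. Gm36181 and Gm36099 held only 19 and 29 counts in all. Of 10 tested genes within 500 kb on either side, 7 were higher and none lower at 48 hours, and 5 were higher and 2 lower at 7 days. Over all tested genes, 26.9% were higher and 27.7% lower at 48 hours, and 28.9% and 27.9% at 7 days. Changes among the neighbours with a level of at least 10 were smaller than that of Serpinb9b, from 0.17 (Wrnip1) to 2.32 (Slc22a23) in log2 fold change at 48 hours and from -0.28 (Tubb2b) to 2.65 (1110046J04Rik) at 7 days. Neighbouring genes are not independent samples, and these counts are a description.

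**Figure D5:**
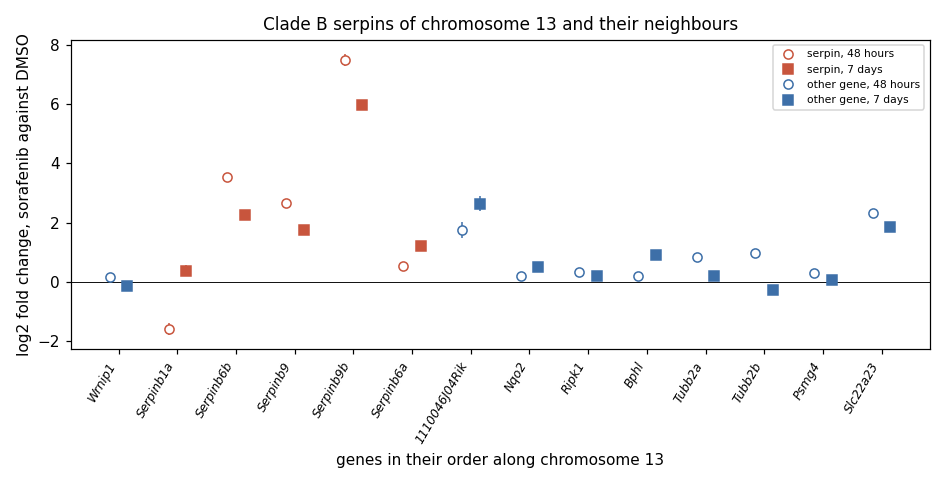
Log2 fold change with sorafenib at 48 hours (open circles) and 7 days (filled squares), with standard errors, of the tested genes that averaged at least 10 normalized counts in and around the clade B serpin stretch of chromosome 13, in chromosomal order (spacing not to scale). Serpin genes are red and other genes blue, and Serpinb9b stands highest at both times.

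Serpin levels also differed between the times within a treatment. In DMSO, 12 of the 28 were higher and 6 lower at 7 days than at 48 hours, against 23.9% and 25.5% of all tested genes. With sorafenib, 10 were higher and 5 lower, against 17.5% and 22.3%. Time and culture batch cannot be told apart in these contrasts. The sorafenib response differed between the times in 12 of the 28 (36.8% of all tested genes). Among the clade B genes of chromosome 13, Serpinb9b, Serpinb9 and Serpinb6b responded less at 7 days, and Serpinb6a and Serpinb1a shifted upward. The sorafenib contrast of each time used its own vehicle libraries.

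A list of 38 genes held proteases that serpins inhibit and also F3 (tissue factor), which is a cofactor and not a protease. F3 was called higher at 48 hours (log2 2.00) and was not called at 7 days. Of the list with F3, 21 were tested, with 11 higher and 4 lower at 48 hours, and 10 and 2 at 7 days. Cma1, called higher at 7 days, passed the count minimum only through its sorafenib 7-day libraries, with 12 counts there and 0 elsewhere. Hpn, called lower at 48 hours, passed it only through DMSO libraries, with 9 counts at 48 hours and 2 at 7 days. The counts that include them are a description only. The median log2 fold change was 0.17 at both times. Beside these and the lists that follow stand the shares over all tested genes, 26.9% higher and 27.7% lower at 48 hours and 28.9% and 27.9% at 7 days. Plg, Elane, Ctsg and Gzmb, targets of the plasmin and granule inhibitors, were below the count minimum. Prtn3, another granule protease of the list, passed it with 71 counts in all. It was called lower at 48 hours (log2 -1.93, FDR 0.0134) and was not called at 7 days. Among those averaging at least 100 normalized counts, Htra1, a secreted protease of the extracellular matrix, changed most, from 319 ± 25.5 to 7824 ± 479 normalized counts at 48 hours (log2 4.62, FDR 6.61e-21) and from 446 ± 36.4 to 9973 ± 372 at 7 days (log2 4.48, FDR 3.10e-21). Ctsl, the lysosomal cathepsin L, rose from 7875 ± 218 to 23196 ± 718 and from 6460 ± 54.5 to 15819 ± 153 (log2 1.56 and 1.29). Plau, the urokinase-type plasminogen activator, rose from 127 ± 17.9 to 286 ± 28.0 and from 145 ± 11.6 to 327 ± 20.1 (log2 1.17 at both times, FDR 2.26e-09 and 7.98e-10).

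Of 15 receptors and cofactors 14 were tested, with 10 higher and 3 lower at 48 hours and 8 higher and 6 lower at 7 days (medians 0.40 and 0.23). Plaur, the urokinase receptor, rose by 1.93 and 1.49 log2 units (FDR 1.605e-16 and 3.135e-15). Vldlr, a receptor that clears protease-serpin complexes, rose by 2.01 and 2.63 log2 units (FDR 2.96e-12 and 7.65e-14). It lies on chromosome 19, and without sorafenib 48-hour replicate 2 the change at 48 hours was 2.15. Of the 18 collagen clients and partners of Serpinh1, 17 were tested, with 9 higher and 6 lower at 48 hours and 11 higher and 6 lower at 7 days (medians 0.25 and 0.21). The type IV collagens Col4a1 and Col4a2 rose by 1.96 and 1.91 log2 units at 48 hours and by 1.42 and 1.31 at 7 days, and Col3a1, a fibrillar collagen, fell by 0.61 and by 2.13. The other fibrillar collagens of the list were called higher at both times, with log2 fold changes at 48 hours and 7 days of 0.95 and 0.31 for Col1a1, 1.75 and 0.67 for Col1a2, 1.39 and 0.75 for Col5a1 and 1.12 and 0.18 for Col5a2, so Col3a1 stood alone among them. Of 5 serpins without protease inhibition 3 were tested, and Serpinh1 and Serpinf1 were higher at both times while Serpinb5 was not called.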

How the data were processed

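The deposited values are counts of reads per gene in p53-/-; Myc hepatoblasts, with no normalization and no pooling, and per the labels the authors made stranded, poly(A)-selected libraries. The submitters' processing notes name the GRCm39 build, STAR 2.7.1a, featureCounts 2.0.6 and DESeq2 1.40.2. The gene annotation, the strand setting and the treatment of reads that match several places are not given in the sources used here.

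Genes with fewer than 10 counts in total were removed (20396 genes), as in the study's methods. The other 20444 were fitted in R 4.3.3 with edgeR 4.0.16 (TMM, 1 coefficient per group, all 16 libraries, quasi-likelihood F test), after the same steps were tested on simulated data. The Benjamini-Hochberg FDR had to be under 0.05 for a call. Normalized counts are counts divided by the effective library size (library size times TMM factor) and multiplied by the geometric mean effective size, and errors are SDs of 4 libraries or SEs of fitted log2 fold changes. Rate ratios carry exact conditional binomial intervals at 95%, which cover counting error only.

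Serpin genes averaging at least 100 normalized counts and called with sorafenib are given in every library, those averaging 10 to 100 by group, and the rest by counts. From each list of proteases, receptors and collagen partners, the 3 called genes with the largest change at 7 days and a mean of at least 100 were chosen. The serpin genes and all lists were chosen with earlier results of these data known. Positions, exons, transcripts and promoters come from the GRCm39 genome with GENCODE M39. Identity was aligned with Biopython 1.88. Alternatives were DESeq2 1.42.0, its size factors, 2 other count filters, a log2 fold change of 1 or more in size, a replicate block, fits of only the libraries compared, and each library left out. No protein sequences were used here. Of the genes the rule names, 1 serpin and 1 receptor are not reported here, but counts over all serpin genes and lists include them. The replicates within each group differed by more than sampling noise, and none was merged. The chi-square per gene of a pair of libraries, which grows with their difference, was uneven in both vehicle groups and in sorafenib at 48 hours. It was 53.1 to 71.6 between DMSO 7-day replicate 4 and the rest of its group, and 1.94 to 3.20 within that rest. DMSO 48-hour replicates 1 and 4 (5.09) and 2 and 3 (5.95) formed pairs, with 18.7 to 42.7 across the pairs. Sorafenib 48-hour replicate 2 gave 32.6 to 38.1 against the rest of its group, with 2.50 to 5.95 within that rest.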

Additional observations from a re-analysis of the deposited data

Results flagged for a closer look

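The sorafenib response of the 11 serpin genes given here differed between 7 days and 48 hours, by the interaction of treatment and time in edgeR. As log2 fold change at 7 days minus that at 48 hours, the difference was 1.97 for Serpinb1a, 1.56 for Serpine2, 1.12 for Serpini1, 1.06 for Serpinf1 and 0.66 for Serpinb6a. It was -3.05 for Serpina11, -1.62 for Serpina9, -1.52 for Serpinb9b, -1.26 for Serpinb6b, -0.91 for Serpinb9 and -0.31 for Serpinh1. The FDR lay between 2.23e-08 (Serpinf1) and 0.0101 (Serpinb9b). Among all tested genes, 36.8% showed such a difference.

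In Serpinb6b, sorafenib 7-day replicate 4 lay apart from the other 3 libraries of its group, at 648 normalized counts against 681 to 684. The gap took 0.928 of the group's range, above Dixon's 95% critical value for 4 samples. This was 1 of 52 groups of 4 tested over 13 serpin genes, and chance flags about 1 group in 20.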

How the results depend on the processing

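Of the counts of called serpin genes recomputed under the alternatives, 199 stayed within 1.5 times the reported count and 3 moved. The 3 came from asking for a log2 fold change of 1 or more in size: at 7 days against 48 hours, lower genes with DMSO went from 6 to 2, and higher and lower genes with sorafenib from 10 to 5 and from 5 to 3. With 1 library left out, the counts ran from 9 to 11 higher and 3 to 4 lower at 48 hours, 12 to 15 and 4 to 4 at 7 days, 12 to 13 for the difference of responses, 9 to 12 and 4 to 6 for time in DMSO, and 10 to 11 and 5 to 6 for time with sorafenib. Of the values of single genes, 939 kept their direction and side of the threshold, 12 lost the call, 1 gained it, and none turned its direction. Without sorafenib 48-hour replicate 2, 28.5% of 20353 tested genes were higher and 28.6% lower at 48 hours.

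The labels give the groups the same replicate numbers, but same-numbered DMSO and sorafenib libraries did not deviate together (correlations over 10646 genes of -0.05 to 0.01 at 48 hours and -0.01 to 0.12 at 7 days). With the replicate number as a block, 9 serpin genes were higher and 3 lower at 48 hours, 13 and 4 at 7 days, and 12 differed between the times. Serpina11 at 48 hours (FDR 0.0521), Serpinb1c at 48 hours and Serpinb6c at 7 days were not called with the block, and no other serpin call with sorafenib changed. Calls of genes with few counts are limited by depth: Serpinb1c at 48 hours rested on 8 counts in all.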
